A study of Mus musculus with 8 samples.

Results

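Among the 23361 genes listed for the squamous-columnar junction (SCJ) of the mouse stomach, 8 transcription factors of the endocrine lineage were followed here: Neurod1, Neurog3, Insm1, Nkx2-2, Pax6, Pax4, Isl1 and St18. They were chosen by gene symbol, and all 8 were found in the table. RNA of 5 SCJ cancers was compared with RNA of the SCJ of 3 control stomachs. The cancers carried the genotype Trp53-/-Rb1-/-. Per the study's methods they arose in mice that carry eGFP and CreERT2 at the Lgr5 locus, Trp53 loxP/loxP, Rb1 loxP/loxP and the Ai9 tdTomato reporter, in which tamoxifen activates Cre in Lgr5+ cells, and were cut out months after induction along the border of tdTomato expression. The controls were wild type and age-paired; the methods mention tamoxifen injection of control mice in the tumor induction experiments, without saying whether these were the animals sequenced. Each sample is a piece of tissue with many cell types, so more endocrine cells and more RNA per cell cannot be told apart.

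Enteroendocrine cells of the stomach and intestine and islet cells of the pancreas arise from epithelial progenitors through a cascade of transcription factors. Neurog3 is switched on briefly in progenitors and commits them to the endocrine fate. Its known targets include Neurod1, Insm1, Nkx2-2 and Pax4, which act with Pax6 and Isl1 to complete differentiation and to keep hormone genes on. St18 belongs to the Myt family of zinc finger factors, whose founding member Myt1 also takes part in endocrine differentiation.

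Expression was given as FPKM (fragments per kilobase of transcript, scaled to the mapped fragments of the library), rounded to whole numbers, so that a difference of 1 is the smallest visible step. The sum of FPKM ran from 403569 to 573858 in the cancers and from 887141 to 992550 in the controls, and read depth is unknown. A listed 0 can be a failed estimate: Pgc, the pepsinogen gene of chief cells, was listed at 28832 in control 1 and at 0 in controls 2 and 3. Of the deleted genes, Rb1 had FPKM of 4, 4, 5, 6 and 4 in cancers 1 to 5 and 9, 9 and 10 in the controls (adjusted p = 0.0059 from limma), and Trp53 had 12, 22, 12, 30 and 12 against 16, 17 and 19 (adjusted p = 0.87 from limma). Values per gene hide loss of single exons, and with TPM, in which each library is rescaled to the same sum, Rb1 lost its call (difference -0.05, adjusted p = 0.84 from limma) and Trp53 was called higher (difference 0.86, adjusted p = 0.020 from limma). Lgr5, whose locus drives Cre, was listed at FPKM of 0 to 2 in the cancers and 0 to 1 in the controls. The 2 groups were compared with limma on log2(FPKM + 1), and a gene was called changed at a Benjamini-Hochberg adjusted p under 0.05 over the 14357 genes that reached FPKM 1 in at least 3 samples. By this rule 16.2% of all genes tested were higher in the cancers and 18.3% lower. With TPM the median difference of all genes moved from -0.04 to 0.81 and the share of changed genes that were higher from 47.0% to 93.1%.

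Of the 8 lineage factors, 6 were higher in the cancers: Neurod1, Pax6, Insm1, Nkx2-2, Isl1 and St18. In each of the 6, every cancer lay above every control, a separation that held for 14.4% of all genes tested, whereas every cancer lay below every control for 19.8%. Neurog3 and Pax4 stayed under the filter, as they were at or next to 0 throughout. The filter bears on these counts, because Neurod1, Pax6, Nkx2-2 and St18 could pass it only through the cancers, whereas Insm1 and Isl1 would have passed through the controls alone. Genes of the lists below that were at 0 in every control could likewise pass the filter only through the cancers. The plot of FPKM by sample shows all 8 genes.

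**Figure D1:**
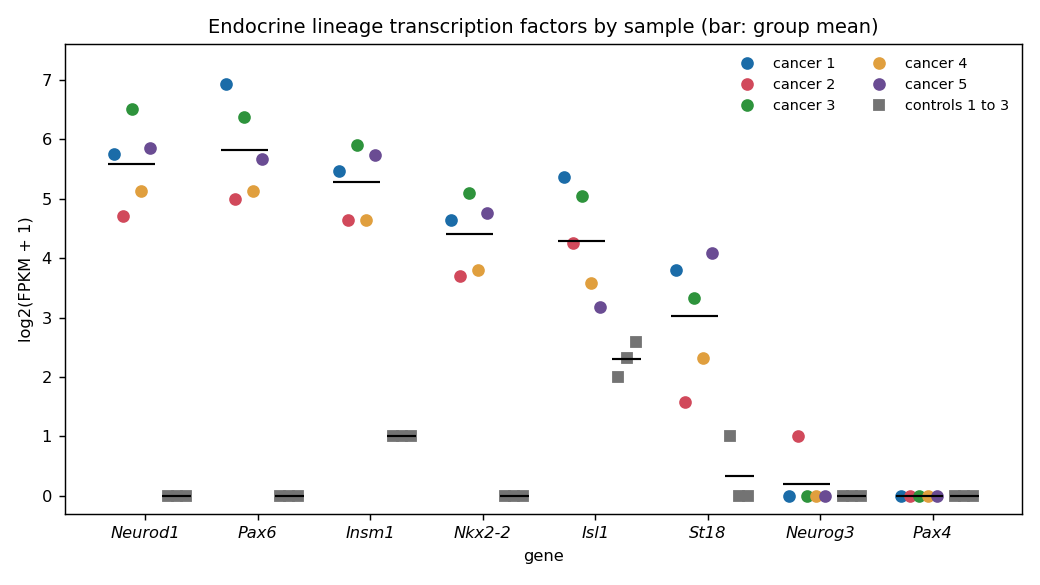
Expression of the 8 endocrine lineage transcription factors in each sample, as log2(FPKM + 1). Circles are the 5 cancers, squares the 3 controls and bars the group means on this scale. For Neurod1, Pax6, Insm1, Nkx2-2, Isl1 and St18 all cancers sit above all controls, and Neurog3 and Pax4 lie at 0 apart from Neurog3 in cancer 2, listed at FPKM 1.

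Neurog3 (Entrez gene 11925, chromosome 10, 62133090 to 62134763, mm10), the factor at the head of the cascade, was listed at FPKM 1 in cancer 2 and at 0 in the other cancers and in every control. Pax4 (Entrez gene 18506, chromosome 6, 28442334 to 28449340), a repressor needed for the insulin and somatostatin lineages of the islet, was listed at 0 in all 8 samples. Neither gene could be tested, and a level that rounds to 0 cannot be told from none.

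Neurod1 (Entrez gene 18012, chromosome 2, 79452641 to 79456636), a basic helix-loop-helix factor directly downstream of Neurog3, had FPKM of 53, 25, 90, 34 and 57 in cancers 1 to 5 and was listed at 0 in all 3 controls. The groups did not overlap, and even the lowest cancer, cancer 2, stood far above the controls. Its mean on the log2(FPKM + 1) scale was higher in the cancers by 5.59 (standard error 0.38, adjusted p = 0.00036 from limma), and the exact permutation test (two-sided, 56 arrangements) gave p = 0.018, the smallest value that 5 against 3 allow. Among the 14357 genes tested its difference ranked number 28 from the top. Where the controls are listed at 0, a difference on this scale depends on the 1 that was added and gives no fold change.

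Insm1 (Entrez gene 53626, chromosome 2, 146221997 to 146225018), a zinc finger repressor found in endocrine progenitors and neuroendocrine tumors, reached FPKM of 43, 24, 59, 24 and 52 in the cancers against 1, 1 and 1 in the controls. The cancers ranged over 2.46-fold among themselves, and the ratio of the group means was 40.4, with a denominator that carries the full rounding error. The difference on the log2(FPKM + 1) scale was 4.28 (standard error 0.33, adjusted p = 0.00054 from limma). Insm1 was thus readable in normal SCJ tissue, unlike Neurod1.

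Nkx2-2 (Entrez gene 18088), a homeodomain factor of several islet and enteroendocrine lineages, had FPKM of 24, 12, 33, 13 and 26 over the cancers and was listed at 0 in every control. The difference was 4.40 (standard error 0.34, adjusted p = 0.00054 from limma). Its locus in the table, chromosome 2, 147177546 to 147331681, is wider than the RefSeq gene (147176485 to 147195434) and is shared with the long noncoding gene Nkx2-2as (Nkx2-2os in RefSeq, Entrez gene 100313531). Nkx2-2as was listed at FPKM of 1, 1, 2, 1 and 1 over the cancers and at 0 in every control (difference 1.12, adjusted p = 0.0038 from limma), far below Nkx2-2 in each cancer. The libraries were directional, but the strand setting of the counting was not given in the sources used here, so reads of the overlapping pair cannot be told apart.

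Pax6 (Entrez gene 18508), a paired-box homeodomain factor that activates the glucagon gene, had FPKM of 121, 31, 82, 34 and 50 over the cancers and was listed at 0 in every control. Cancer 1 was the highest and cancer 2 the lowest. Its difference, 5.82 on the log2(FPKM + 1) scale, was the largest of the 8 factors (standard error 0.44, adjusted p = 0.00054 from limma), and ranked number 23 of all genes tested. The locus in the table (chromosome 2, 105536080 to 105697364) extends over the noncoding neighbour Pax6os1, which was listed at FPKM 2 in cancer 1, 1 in cancer 2 and 0 elsewhere. The coding neighbour Elp4 had FPKM of 3 to 5 in the cancers and 2 to 3 in the controls. Both neighbours were far below Pax6 in each cancer.

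Isl1 (Entrez gene 16392, chromosome 13, 116298270 to 116309688), a LIM-homeodomain factor of endocrine cells that is also known in neurons, was the only one of the 6 with more than 1 FPKM in the controls. It had 40, 18, 32, 11 and 8 in the cancers against 3, 4 and 5 in the controls. Cancers 4 and 5 came close to the controls, and the ratio of the group means was 5.45. The difference was 1.98 (standard error 0.51, adjusted p = 0.022 from limma; two-sided exact permutation test, p = 0.036). The call was lost without control 1, 2 or 3, with adjusted p of 0.084, 0.068 and 0.056 from limma. The differences without them were 1.83, 1.99 and 2.12.

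St18 (Entrez gene 240690, chromosome 1, 6487231 to 6860940) reached FPKM of 13, 2, 9, 4 and 16 in the cancers against 1, 0 and 0 in the controls. Cancer 2 exceeded control 1 by a single step. The difference was 2.69 (standard error 0.60, adjusted p = 0.014 from limma; two-sided exact permutation test, p = 0.036). Without control 2 or 3 the adjusted p was 0.054 or 0.055 from limma.

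The sequence before the start site is shown for 4 of these genes, because Neurod1, Nkx2-2 and Isl1 were higher in the cancers and Neurog3 stands at the head of the cascade, and because each window holds an E-box, the kind of site that proneural helix-loop-helix factors bind. The 250 bases upstream are given 5′ to 3′ on the gene's strand, from RefSeq on GRCm38.p6, with the E-boxes named below in capitals. Other E-boxes, such as CACTTG and CACGTG in the Nkx2-2 window, were not searched and stay in lower case. The Nkx2-2 window lies before a start site at 147186402, inside the RefSeq gene (147176485 to 147195434). The E-boxes searched on both strands were CATATG and CAGCTG, each its own reverse complement, and the motif CAGATG, which reads CATCTG on the other strand. The letters TAATTA, a core bound by homeodomain factors, and AAGTTT were searched as well. The matches did not overlap.
Neurod1 (chr2:79456637-79456886, minus strand): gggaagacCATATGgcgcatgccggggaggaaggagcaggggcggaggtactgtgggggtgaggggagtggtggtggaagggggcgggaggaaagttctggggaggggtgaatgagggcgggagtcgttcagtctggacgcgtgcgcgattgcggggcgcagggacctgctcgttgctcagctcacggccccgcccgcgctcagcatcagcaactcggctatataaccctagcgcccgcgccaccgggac
Nkx2-2 (chr2:147186403-147186652, minus strand): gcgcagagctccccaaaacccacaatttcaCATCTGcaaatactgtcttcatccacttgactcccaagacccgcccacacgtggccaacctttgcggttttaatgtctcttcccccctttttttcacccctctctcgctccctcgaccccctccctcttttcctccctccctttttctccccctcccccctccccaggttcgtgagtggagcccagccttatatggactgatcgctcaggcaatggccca
Isl1 (chr13:116309689-116309938, minus strand): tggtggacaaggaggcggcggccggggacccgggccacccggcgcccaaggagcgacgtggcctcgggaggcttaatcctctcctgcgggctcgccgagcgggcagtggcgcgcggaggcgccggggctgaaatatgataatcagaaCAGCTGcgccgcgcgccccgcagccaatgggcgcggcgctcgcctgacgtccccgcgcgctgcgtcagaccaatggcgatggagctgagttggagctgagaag
Neurog3 (chr10:62132840-62133089, plus strand): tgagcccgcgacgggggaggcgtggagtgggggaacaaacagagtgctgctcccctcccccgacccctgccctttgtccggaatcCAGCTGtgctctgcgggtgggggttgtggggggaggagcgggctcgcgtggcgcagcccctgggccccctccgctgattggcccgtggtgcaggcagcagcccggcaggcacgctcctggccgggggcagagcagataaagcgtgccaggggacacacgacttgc
Both Isl1 and Neurog3 hold CAGCTG, which 13% of all 32851 windows of this length hold. CAGATG in the Nkx2-2 window is found in 14.4% of windows and CATATG in the Neurod1 window in 3.46%. The 2 Pax6 windows (chr2:105668646-105668895 and chr2:105682213-105682462) hold no E-box of these kinds, and the second holds AAGTTT, read on the other strand as AAACTT, 53 bases before the start. AAGTTT is found in 12.8% of all windows, and TAATTA, found in 4.84%, is in none of these windows. Promoter windows were matched for 5 of the 8 factors. A match describes the letters in the window and not a bound site.

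In order of their median over the cancers, the levels per transcript length were 53 FPKM for Neurod1, 50 for Pax6, 43 for Insm1, 24 for Nkx2-2, 18 for Isl1 and 9 for St18. Neighbours in this order were not all apart. Neurod1 exceeded Pax6 in 2 cancers and equalled it in 1, and Nkx2-2 exceeded Isl1 in 3 of 5. Insm1 exceeded Nkx2-2 in 5 of 5 cancers, and Pax6 exceeded Insm1, and Isl1 exceeded St18, in 4 of 5.

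The cancers differed among themselves, and part of this spread was shared. Neurod1 and Nkx2-2 ranked the cancers alike, from cancer 3 through 5, 1 and 4 down to 2, and Insm1 did so too apart from a tie of cancers 2 and 4. The FPKM of Nkx2-2 per FPKM of Neurod1 lay between 0.37 and 0.48 in the 5 cancers, a coefficient of variation of 11.7%, whereas that of the Neurod1 level itself was 48.5%. For Insm1 per Neurod1 the ratio lay between 0.66 and 0.96 (coefficient of variation 16.1%). The other factors kept looser proportions, from 0.88 to 2.28 for Pax6, 0.08 to 0.28 for St18 and 0.14 to 0.75 for Isl1 (coefficients of variation of 46.6%, 55.6% and 58.3%). Isl1 per Neurod1 was thus 5.38-fold higher in cancer 1 than in cancer 5. These ratios describe 5 tumors and were not tested.

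**Figure D2:**
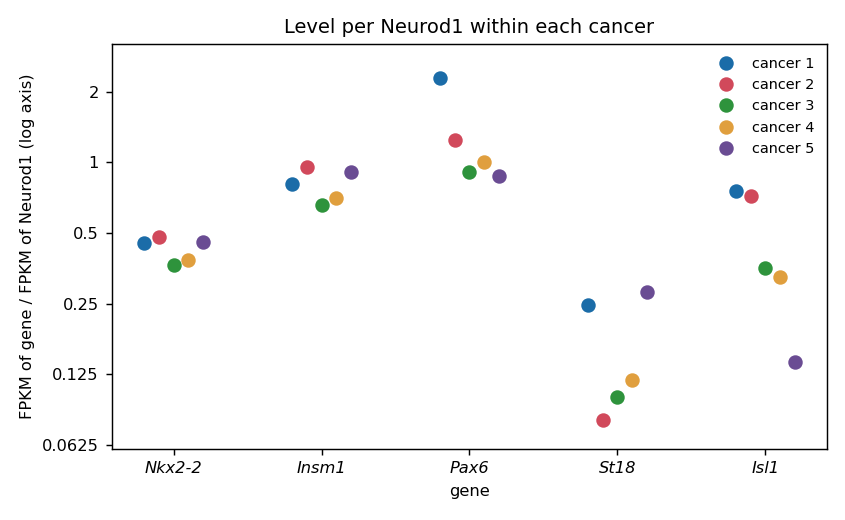
FPKM of 5 factors divided by the FPKM of Neurod1 in the same cancer, on a log axis, 1 point per cancer. The points of Nkx2-2 (0.37 to 0.48) and Insm1 (0.66 to 0.96) lie close together, and those of Isl1 spread from 0.14 to 0.75.

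RNA of gastric gland markers varied between the tumor pieces and was highest where the factors were lowest. The summed FPKM of all 8 factors was 294, 113, 305, 120 and 209 in cancers 1 to 5. The summed FPKM of 10 markers of gastric gland cells (parietal, chief, pit and neck cells, Pgc left out) was 691, 74176, 5441, 48915 and 16195 in the same order and 158584 to 224932 in the controls. Cancers 2 and 4, with the most marker RNA, had the least of the factors. Whether the marker RNA came from normal epithelium or from tumor cells cannot be told apart in such pieces. The part of this RNA in the spread among cancers was not tested.

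Of 28 other transcription factors of endocrine cells and foregut, the cancers had 7 at higher and 4 at lower levels, and the median difference of the 20 tested was 0.59 on the log2(FPKM + 1) scale, beside -0.04 for all genes, of which 16.2% were higher and 18.3% lower. The factors that rose most are known from endocrine cells. Etv1, an ETS factor, had FPKM of 107, 27, 115, 60 and 77 over the cancers and 1 in each control (difference 5.13, standard error 0.44, adjusted p = 0.00078 from limma). Fev, the ETS factor of serotonin-producing cells, had 29, 13, 72, 20 and 20 and was listed at 0 in the controls (difference 4.74, adjusted p = 0.0011 from limma). Rfx6, which acts downstream of Neurog3, had 36, 9, 54, 18 and 24 and was listed at 0 in the controls (difference 4.64, adjusted p = 0.0012 from limma). In all 3 genes cancer 3 was the highest and cancer 2 the lowest, as for Neurod1.

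Factors of the foregut epithelium as a whole moved the other way. Gata4 reached FPKM of 20, 47, 22, 33 and 21 in the cancers against 120, 109 and 111 in the controls (difference -2.03, standard error 0.29, adjusted p = 0.0029 from limma). Gata6 (difference -1.61, adjusted p = 0.0065 from limma) and Foxa3 (difference -1.67, adjusted p = 0.0059 from limma) were also lower in every cancer than in every control. With TPM the differences were smaller, at -1.08 for Gata4, -0.68 for Gata6 and -0.73 for Foxa3, still past the threshold. In a fit blocked by replicate number all 3 genes missed it, with adjusted p of 0.055, 0.054 and 0.10 from limma.

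Of 21 further factors known from proneural cells and neuroendocrine tumors, 12 were listed at 0 in every sample, 3 were higher and 0 lower in the cancers (median difference 0.92 over the 8 tested), against shares of 16.2% and 18.3% over all genes. Hes6, an antagonist of Hes1, had FPKM of 49, 36, 56, 82 and 82 in the 5 cancers against 23, 22 and 34 in the controls (difference 1.14, adjusted p = 0.025 from limma). The call for Hes6 was lost without cancer 3 or control 1 or 2, with adjusted p of 0.053, 0.091 and 0.091 from limma. A fit blocked by replicate number lost it as well (adjusted p = 0.061 from limma).

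The families of the 8 factors were otherwise nearly silent. Of 22 relatives, 15 were listed at 0 in all samples, among them Neurod2, Neurog1, Neurog2, Insm2 and Nkx2-1, and 2 were higher in the cancers (median difference 0.72 over the 5 tested), where 16.2% of all genes were. Of the 22, 21 were listed at 0 in every control and could pass the filter only through the cancers, which bears on these counts. The 2 that were higher were St18 relatives. Myt1 had FPKM of 6, 3, 7, 4 and 6 over the cancers and was listed at 0 in the controls (difference 2.59, adjusted p = 0.00091 from limma). Myt1l had 4, 1, 2, 1 and 1 and was likewise at 0 in the controls (difference 1.38, adjusted p = 0.016 from limma). Values this low hold few rounding steps. With quantile normalization the adjusted p of Myt1l was 0.092, and without control 1, 2 or 3 it was 0.058, 0.056 and 0.055, all from limma.

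**Figure D3:**
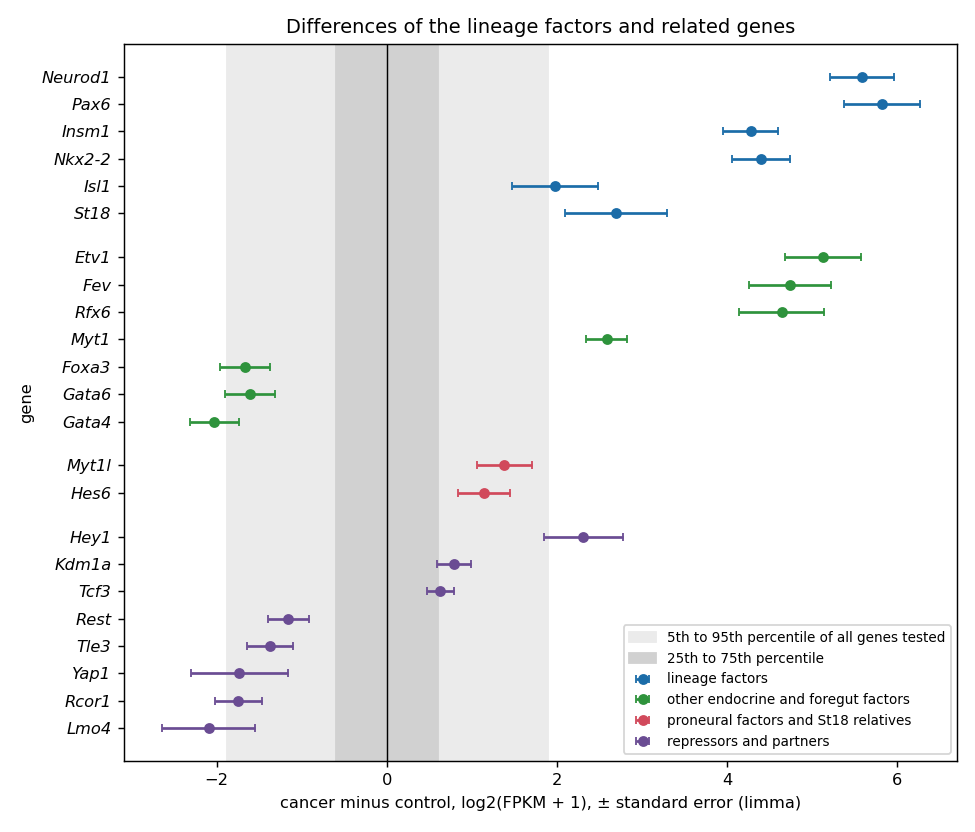
Difference between cancers and controls on the log2(FPKM + 1) scale with its standard error from limma, for the 6 lineage factors tested and for some related genes past the threshold. Grey bands span the central parts of all 14357 genes tested, from -1.87 to 1.90 for the wide band. Pax6 (5.82) and Neurod1 (5.59) lie farthest to the right, and Gata4 (-2.03) and Lmo4 (-2.09) to the left.

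Of 12 genes that hold back the endocrine or neuronal program, 1 was higher and 2 were lower (median difference -0.42 over the 10 tested), beside 16.2% higher and 18.3% lower among all genes. Rest, the repressor of neuronal genes outside the nervous system, reached FPKM of 2, 1, 1, 1 and 2 in the cancers against 3, 5 and 5 in the controls (difference -1.16, standard error 0.24, adjusted p = 0.010 from limma). Yap1, a coactivator of the Hippo pathway, had 2, 16, 5, 16 and 8 against 31, 25 and 27 (difference -1.73, adjusted p = 0.048 from limma). Hey1, a Notch target, rose from 0, 0 and 1 to 11, 4, 9, 3 and 3 (difference 2.31, adjusted p = 0.0094 from limma). The Id proteins, which sequester helix-loop-helix partners, were abundant in both groups. Their values were 127 to 263 against 277 to 421 FPKM for Id1, 83 to 152 against 101 to 129 for Id2 and 85 to 207 against 114 to 181 for Id3, and none of the 3 passed the test. With TPM neither Rest (-0.52, adjusted p = 0.24 from limma) nor Yap1 (-0.88, adjusted p = 0.16 from limma) did. Without cancer 3 or 5 or control 1, 2 or 3 the adjusted p of Yap1 was 0.10, 0.080, 0.14, 0.11 and 0.12 from limma, and Yap1 kept its call under 6 of 17 alternatives.

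Of 14 known binding partners of the factors, 2 were higher and 3 lower (median difference 0.09), shares near the 16.2% and 18.3% of all genes. Kdm1a, the histone demethylase of the Insm1 complex, reached FPKM of 31, 21, 33, 20 and 31 in the cancers against 15, 16 and 14 in the controls (difference 0.79, adjusted p = 0.021 from limma). Tcf3, an E protein that pairs with Neurod1, rose less (difference 0.63, adjusted p = 0.022 from limma). Both calls depend on the controls. The adjusted p of Kdm1a was 0.069, 0.058 and 0.073 without control 1, 2 and 3, and that of Tcf3 was 0.080 and 0.083 without control 1 and 2, from limma. Rcor1, a corepressor that joins Kdm1a to Insm1 and Rest, fell from 26, 20 and 21 to 8, 6, 6, 3 and 8 (difference -1.74, adjusted p = 0.0043 from limma). Lmo4, a LIM-only protein that competes for the Isl1 cofactor Ldb1, had a difference of -2.09 (adjusted p = 0.024 from limma), and Tle3, a Groucho corepressor, one of -1.37 (adjusted p = 0.0092 from limma). With TPM the adjusted p was 0.076 for Rcor1, 0.056 for Lmo4 and 0.12 for Tle3 from limma. That of Lmo4 was 0.054 without cancer 3 and 0.090, 0.056 and 0.073 without control 1, 2 and 3.

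Of 34 hormone, granule and amine genes of endocrine cells, 17 were higher and 0 lower (median difference 5.11 over the 29 tested), with 16.2% and 18.3% as the shares over all genes. Chga, Scg2, Scg3, Scg5, Resp18 and Pcsk1n, which encode granule proteins, Pcsk1, Pcsk2 and Cpe, which process prohormones, and Ddc, an enzyme of amine synthesis, were all among the 17, and for each the lowest cancer exceeded the highest control. Among the 3 largest rises, Cck had a difference of 9.37 (adjusted p = 0.0027 from limma), Chgb of 8.30 (adjusted p = 0.00036 from limma) and Sct, the secretin gene and a Neurod1 target, of 7.85 (adjusted p = 0.00079 from limma). Single hormone genes differed widely between cancers. Gast reached 2032 in cancer 2 and 7 or less elsewhere, Nts ran from 1 to 895, Pyy from 3 to 323 and Ppy from 0 to 836 in the cancers. Sst (15 to 963 against 186 to 263) was not called, and Ghrl (0 to 1330 against 2160 to 3471) was lower in every cancer than in every control but not past the threshold. Gcg had FPKM of 8250, 17443, 8054, 89 and 36 in cancers 1 to 5, so that it, like Isl1 (40, 18, 32, 11 and 8), was higher in cancers 1, 2 and 3 than in cancers 4 and 5. Hdc, the histamine enzyme, and Tph1, the serotonin enzyme, were highest in cancers 4 and 5 instead, at 171 and 58 for Hdc and 60 and 33 for Tph1. These patterns were picked after the values were seen and rest on 5 tumors.

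**Figure D4:**
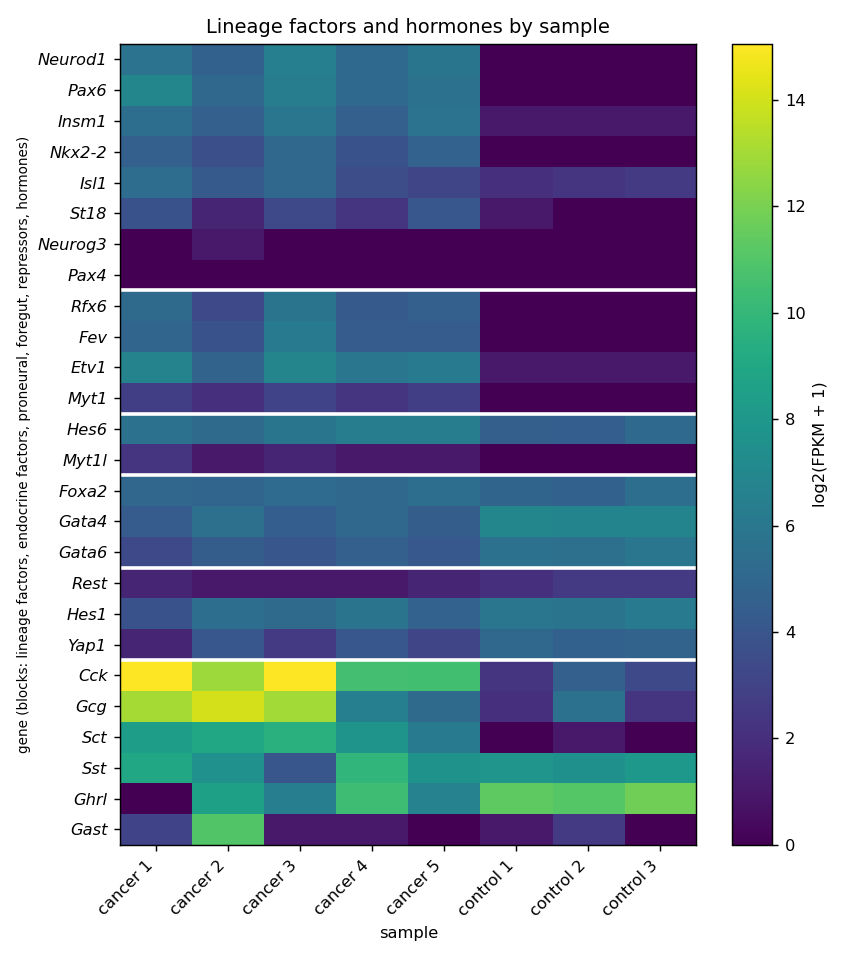
Levels of the 8 lineage factors, related transcription factors, repressors and hormones in each of the 8 samples, as log2(FPKM + 1) in color. Rows are genes in blocks divided by white lines, and columns are samples. The first 6 rows are brighter in all 5 cancers than in the controls, Neurog3 and Pax4 stay dark, and Gcg and Cck are brightest in cancers 1, 2 and 3.

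Among genes other than the 8 factors, those with the most similar profile were found by the root mean square distance of log2(FPKM + 1), each gene centred on its mean over the 8 samples. For Neurod1 they were Pcsk1n (distance 0.29), Cpe (0.30) and Etv1 (0.34). Pcsk1n encodes the prohormone convertase inhibitor proSAAS and Cpe a carboxypeptidase that trims prohormones. Insm1 and Nkx2-2 shared their nearest genes, Zcchc18 (distance 0.17 and 0.16), Cdk5r2 (0.20 and 0.23) and Gnao1 (0.23 and 0.23), and lay closer still to each other (0.08). Cdk5r2 encodes an activator of Cdk5, and Gnao1 a G protein subunit abundant in neurons. Outside the 8 factors, the genes nearest to Pax6 were Sez6l2 (0.39), Cdkn2a (0.46) and Etv1 (0.47), while Neurod1 lay at 0.41 from Pax6, and those nearest to St18 were Gabrq (0.32), Gdap1 (0.39) and A230070E04Rik (0.41). Isl1 had different neighbours, Fgd2 (0.16) and the matrix genes Fbln5 (0.25) and Ltbp2 (0.25).

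Markers of other tissues that use the same factors were examined beside these results. Of 10 enteric neuron markers, 6 were tested, 3 were higher in the cancers and 0 lower (all genes: 16.2% and 18.3%), and the list summed to FPKM of 85 to 152 in the cancers and 9 to 14 in the controls. The 3 that rose were Uchl1, Elavl4 and Ret. Vip (0, 25, 5, 9 and 1 against 5, 4 and 2 FPKM) and Hand2 (0, 12, 3, 3 and 2 against 3, 2 and 1 FPKM) were highest in cancer 2 and not called, and Phox2a and Chat were listed at 0 in every sample. Of 6 enteric glia markers 1 was higher, and their sum was 3 to 6 in the cancers and 0 to 1 in the controls, with Sox10 at 0 throughout. Of 6 islet markers, the insulin genes Ins1 and Ins2, Iapp and Slc2a2 did not exceed FPKM 1 in any sample. The list summed to 37 to 17715 in the cancers and 3 to 49 in the controls, nearly all of it Gcg and Ppy. Of 6 adrenal medulla markers 0 were called. Th, the enzyme that starts catecholamine synthesis, had 9, 8, 1, 0 and 0 FPKM in the cancers and was listed at 0 in the controls (adjusted p = 0.20 from limma), and Dbh, Pnmt and Phox2a were listed at 0 in all samples. The list summed to 0 to 9 in the cancers and 0 in the controls. The sum over hepatocyte markers was 451 in cancer 5, at most 58 elsewhere among the cancers and 1 in each control, while the summed factors were higher in cancers 1 and 3 than in cancer 5. The labelled tissue was present in the controls, with gastric gland markers as given above. The median difference of 11 gland markers was -4.29. In 7 of them every cancer lay below every control, as for 19.8% of all genes tested, although only 1 passed the test as lower and 0 as higher. Of 6 squamous markers 2 were lower and 0 higher. The squamous markers summed to 2138 to 3695 in the controls and 1 to 1635 in the cancers. Smooth muscle markers ran from 43 to 1692 in the cancers and from 355 to 549 in the controls, and were highest in cancer 2, the cancer with the lowest Neurod1. The part of these other tissues in the differences was not tested.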

How the data were processed

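Polyadenylated RNA of 5 SCJ cancers and of the SCJ of 3 wild-type stomachs was sequenced from directional libraries, 1 library per sample. Per the labels the authors used cutadapt 1.8, TopHat2 2.0.13 and Cuffnorm 2.2.1 with mm10, and per the paper's methods cuffquant for UCSC mm10 genes. The deposited values are FPKM rounded to whole numbers by the authors and were treated as a score, not as read counts. The normalization option of Cuffnorm was not given in the sources used here. Depth is unknown, so no counting interval is given.

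Groups were taken from the sample titles. Nothing in the labels says more than that samples are separate, so p-values measure the spread between these samples. Genes that reached FPKM 1 in 3 or more samples were fitted on log2(FPKM + 1) with limma 3.58.1 in R 4.3.3 (lmFit, eBayes with trend), which was tested on simulated data. Alternatives were pseudocounts of 0.1 and 0.01, no filter, a mean FPKM of at least 5, array weights, TPM, a replicate block, quantile normalization, no trend in eBayes and leaving out each sample. The factors, lists and tests were chosen with earlier results of these data known; the promoter motifs were chosen after the expression values were seen. Named genes are the 8 factors, the 3 largest rises and falls past the threshold in each list, genes of the lists that reach FPKM 100, the deleted genes, Lgr5 and the 3 nearest profiles of each changed factor. Tph1 and the relatives at 0 were named after their values were seen. Some genes of the lists are not reported here. Start positions of the table were raised by 1 to count from 1.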

Additional observations from a re-analysis of the deposited data

Results flagged for a closer look

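Among 30 genes checked for a single cancer standing far from the others (a gap above 0.71 of the range on the log2(FPKM + 1) scale), 1 stood out, where chance gives about 1.5. Not every gene named above was among the 30. Gast, listed at 2032 in cancer 2 and at 7 or less in the other cancers, was not checked. Neurog3 in cancer 2 was listed at FPKM 1 and in the other 4 cancers at 0, a gap of 1.0 of the range that amounts to a single rounding step.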

How the results depend on the processing

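Neurod1, Pax6, Insm1 and Nkx2-2 kept their direction and stayed past the threshold under all 17 alternatives, with the highest adjusted p at 0.026 from limma. Of the 8 factors, 6 were changed under all alternatives other than the replicate block (5) and the fits without control 1, 2 and 3 (4 to 6 over all samples left out). Leaving out each sample, the differences ran from 1.71 to 2.26 for Isl1 and from 2.43 to 3.05 for St18. The count of all changed genes, 4948, was 7704 with TPM, 8148 with array weights (3909 higher, 4239 lower), 1882 with the block and, with single samples omitted, 2490 to 5252; it was 2490, 2643 and 2815 without control 1, 2 and 3. A mean FPKM of at least 5 left 35.4% of changed genes higher. Among other endocrine and foregut factors (11 changed) the block gave 6, and samples left out 7 to 12. Proneural factors (3) gave 6 with array weights, and 1 to 4 with samples left out. Relatives (2) gave 0 with a mean FPKM of at least 5, 1 with quantile normalization, 4 with array weights, 1 with the block and 1 to 2 with samples left out. Repressors (3) gave 1 with a mean FPKM of at least 5, 5 with TPM (5 higher, 0 lower) and 6 with array weights. Binding partners (5) gave 10 with TPM (10 higher, 0 lower), 1 with the block and 2 to 5 with samples left out. Trp53 reversed from -0.08 to 0.86 with TPM, where it was called higher (adjusted p = 0.020 from limma), and to 0.13 with quantile normalization, and ran from -0.29 to 0.027 with samples left out. Rb1 was -0.05 with TPM (adjusted p = 0.84 from limma). Causes were not tested.

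Same-numbered cancers and controls did not deviate together (correlations of -0.02, -0.19 and -0.10), and 0 of 6 samples correlated best with their own number. No pairing by number was thus seen, but 3 shared numbers are too few to exclude it. With the replicate block, which used the 3 shared numbers, St18 had a difference of 2.57 and an adjusted p of 0.052 from limma. The adjusted p with the block was 0.055 for Gata4, 0.054 for Gata6, 0.10 for Foxa3 and 0.061 for Hes6 from limma, and those of Myt1l, Rest, Yap1, Kdm1a, Tcf3, Lmo4 and Tle3 also missed the threshold. Of the other endocrine and foregut factors, 6 were higher and 0 lower with the block.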

Other observations

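The 4 factors with the largest differences, Neurod1, Pax6, Insm1 and Nkx2-2, all lie on chromosome 2. Of the 1127 genes tested on chromosome 2, 17.6% were higher in the cancers, beside 16.2% of all genes, and their median difference was -0.02 on the log2(FPKM + 1) scale, beside -0.04.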
